A study of Mus musculus with 1024 samples.

Results

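Type I interferon-stimulated genes were examined in single cells sorted from the mouse aorta. The members are the 10 genes *Ifit1*, *Ifit2*, *Ifit3*, *Isg15*, *Irf7*, *Rsad2*, *Oasl2*, *Usp18*, *Ifi44* and *Mx2*, of 24422 genes in the count table. They were chosen by name as genes that respond to type I interferon, with earlier results of these data known, and all 10 were found in the table.

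Type I interferons, among them interferon alpha and beta, bind a receptor made of Ifnar1 and Ifnar2. The signal then runs through a complex with Stat2 and Irf9 that binds the interferon-stimulated response element (ISRE). Type II interferon, or interferon gamma, binds Ifngr1 and Ifngr2 and acts at the gamma-activated site (GAS), and it is known for raising the transactivator Ciita, the MHC class II genes and the GBP and IRG families of GTPases. Many genes, several GTPases among them, respond to both. The question addressed was whether the Endothelial wells of the first WT preparation showed more of the type I or more of the type II genes.

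The cells came from C57BL/6 mice aged 3 months, and the labels give the floxed *Amotl2*, the Cdh5-driven inducible Cre and the ROSA26-EYFP reporter as the strain of WT and KO wells alike. In KO mice tamoxifen had removed *Amotl2*, a scaffold protein of endothelial junctions, from cells in which the Cdh5 promoter drives Cre, which are endothelial. The treatment of the WT mice is not given in the sources used here. Cd45+ cells were depleted, and viable cells were sorted as Cd31+Cd45- (the wells labelled Endothelial) or Cd31-Cd45- (labelled DoubleNegative). There were 2 preparations per genotype. WT and KO of preparation 1 lay on a plate each and those of preparation 2 shared a plate, so that in preparation 1 genotype and plate cannot be told apart. The labels name no mouse, so counts were summed over wells and each preparation was taken as 1 replicate. P-values therefore measure the spread between these sums. The libraries were made with Smart-seq2, which reads whole transcripts and has no molecular identifiers.

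A well was kept if it had 20000 or more gene counts and 500 or more genes, which left 784 of 1024. The Endothelial sums held 235 wells (WT preparation 1), 50 (WT preparation 2), 302 (KO preparation 1) and 89 (KO preparation 2), and the DoubleNegative sums 42, 12, 40 and 14 in the same order. Total counts ran from 8470943 to 94881185 in the Endothelial sums and from 926398 to 9435015 in the DoubleNegative sums. Median counts per Endothelial well ranged from 58190 in KO preparation 2 to 252839 in KO preparation 1. *EYFP*, the reporter of Cre activity, stood at 113 and 85.5 CPM (counts scaled to the same total in each sum) in the KO Endothelial sums, 2.38 and 0.353 in the WT ones and 0 in the DoubleNegative sums. *Amotl2* was at 59.9 and 94.0 CPM in WT and 51.9 and 45.7 in KO Endothelial sums, where reads from the exons left after deletion are counted too. All 10 endothelial markers (*Pecam1* and *Cdh5* among them) were higher in the Endothelial sums by the test given further on, and all 8 smooth muscle markers and 7 of 8 fibroblast markers were lower. The summed level of 14 leukocyte markers lay between 1.40 and 3.53 CPM in Endothelial sums and between 0 and 4.66 in DoubleNegative sums, and 7 of the 14, *Lyz2* and *Cd3e* among them, had no count in any kept well.

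The sequences upstream of the members are shown first, since the ISRE and the GAS are the elements that the names type I and type II refer to. RefSeq windows of 250 bases before a gene's start on GRCm38.p6 were found for 8 of the 10 members, all but *Usp18* and *Mx2*. They were searched on both strands for the ISRE core GAAANNGAAA and the GAS core TTCNNNGAA. An ISRE core was present in 4 of the 8 members, against 2.98% of all 32851 windows of this length, and a GAS core in 1 of the 8, against 7.02%. *Ifit1* held ISRE cores whose leftmost base is at -104 and -85 (negative positions count upstream from the start), *Ifit3* at -156 and -122, *Rsad2* at -120, and *Isg15* held 3 overlapping ones at -78, -72 and -66. *Ifit2* held a GAS core at -241 in its first window. *Irf7*, *Oasl2* and *Ifi44* held neither. Of the GBP and IRG GTPases, 9 of 15 had a window, all 9 with an ISRE core and 6 with a GAS core, and of the 7 MHC class II genes 4 had a window, with neither core. A match to these letters is a description of the sequence, not a binding site.

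The last 150 bases before the start are given for 5 members and for 3 genes of the type II lists, 5′ to 3′ on the strand of the gene, with matches to either core in capitals. *Ifit1* (chr19:34640739-34640888, plus strand), *Ifit3* (chr19:34583379-34583528, plus), *Isg15* (chr4:156200819-156200968, minus) and *Rsad2* (chr12:26456453-26456602, minus) carry ISRE cores, those of *Ifit1*, *Ifit3* and *Rsad2* on the opposite strand. *Oasl2* (chr5:114896784-114896933, plus) had a count in the most wells in 3 of the 4 Endothelial groups and carries none. The GTPase genes *Igtp* (chr11:58199406-58199555, plus) and *Tgtp2* (chr11:49064213-49064362, minus) show a GAS core next to an ISRE core, and *Irf1* (chr11:53769864-53770013, plus) a GAS core alone.
Ifit1: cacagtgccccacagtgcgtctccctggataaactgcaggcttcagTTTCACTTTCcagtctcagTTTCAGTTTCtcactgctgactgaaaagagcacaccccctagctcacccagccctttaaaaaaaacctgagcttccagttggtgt
Ifit3: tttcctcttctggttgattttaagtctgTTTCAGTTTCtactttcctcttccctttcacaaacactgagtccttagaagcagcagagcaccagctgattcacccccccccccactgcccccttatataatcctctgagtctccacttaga
Isg15: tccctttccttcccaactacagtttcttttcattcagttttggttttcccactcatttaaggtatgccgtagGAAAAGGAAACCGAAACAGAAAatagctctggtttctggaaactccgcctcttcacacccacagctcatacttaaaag
Rsad2: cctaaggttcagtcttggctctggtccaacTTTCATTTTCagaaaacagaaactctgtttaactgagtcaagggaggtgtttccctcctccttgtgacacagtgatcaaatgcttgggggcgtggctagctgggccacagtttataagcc
Oasl2: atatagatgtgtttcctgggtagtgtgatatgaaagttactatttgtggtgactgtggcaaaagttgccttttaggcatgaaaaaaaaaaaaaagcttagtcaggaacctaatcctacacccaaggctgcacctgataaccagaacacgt
Igtp: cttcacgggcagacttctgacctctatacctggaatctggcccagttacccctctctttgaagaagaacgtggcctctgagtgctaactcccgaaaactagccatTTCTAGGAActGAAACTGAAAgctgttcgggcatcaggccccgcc
Tgtp2: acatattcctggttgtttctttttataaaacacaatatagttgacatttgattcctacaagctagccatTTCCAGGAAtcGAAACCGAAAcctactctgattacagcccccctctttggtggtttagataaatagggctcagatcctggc
Irf1: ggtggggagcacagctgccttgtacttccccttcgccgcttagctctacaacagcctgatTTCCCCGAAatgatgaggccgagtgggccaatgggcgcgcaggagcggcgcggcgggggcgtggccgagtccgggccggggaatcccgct

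In the Endothelial wells every member was detected in all 4 sums. The 3 IFIT genes encode proteins with tetratricopeptide repeats that bind viral RNA. They lie within 1 cluster on chromosome 19 (GRCm38, GENCODE M21), *Ifit2* at 34550694 to 34576419, *Ifit3* at 34583531 to 34588731 and *Ifit1* at 34640871 to 34650009, all on the plus strand. *Ifit1* measured 40.8, 78.9, 36.7 and 29.6 CPM in WT preparations 1 and 2 and KO preparations 1 and 2. *Ifit2* measured 17.4, 40.6, 20.7 and 15.8 CPM in that order. WT preparation 2 was the highest sum for both, and the other 3 sums lay close together. A single well held 58.9% of the *Ifit1* counts and 45.4% of the *Ifit2* counts of WT preparation 2. In a further setting every gene lost the counts of its own top well in each sum. CPM was then taken over the counts left for all genes, and *Ifit1* measured 38.0, 40.9, 29.8 and 25.3 CPM. With the full totals kept as the divisor, an alternative chosen after seeing the data, it measured 35.9, 32.4, 28.4 and 22.5 CPM. Genes that rise during tissue dissociation, such as *Fos* and *Jun*, also summed highest in WT preparation 2 (5947 CPM, against 2561 to 3187 in the other Endothelial sums). Of these genes *Hspa1a* and *Hspa1b* went the other way. They measured 155 and 310 CPM in WT preparation 1, against 82.7 and 98.8 CPM in WT preparation 2. The part of the dissociation genes in the levels of the members was not tested. *Ifit3* measured 69.0, 61.9, 66.3 and 58.2 CPM, with little spread among the sums. *Ifit3* has a near-identical neighbour, *Ifit3b*, at 8.38 to 19.9 CPM in these sums, so the split of reads between them is uncertain.

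*Isg15* (chromosome 4, 156199424 to 156200818, minus strand) encodes a ubiquitin-like protein that is joined to other proteins. Its level was 16.97, 12.6, 6.97 and 6.37 CPM in the same order, with both WT sums above both KO sums. A single well held 57.3% of the *Isg15* counts of WT preparation 2. Without the top well of each gene, *Isg15* measured 16.5, 6.80, 6.47 and 5.29 CPM over the counts left. With the full totals kept as the divisor, an alternative chosen after seeing the data, those of WT preparation 2 and KO preparation 1 were 5.38 and 6.17 CPM, so their order rests on this choice. *Usp18* (chromosome 6, 121245906 to 121270917, plus strand) encodes the protease that removes Isg15 and also restrains signalling at the type I receptor. It was the steadiest member at 11.5, 10.8, 11.3 and 9.92 CPM. Exons of *Usp18* overlap *Gm44148* and exons of *Irf7* overlap *Phrf1* in this annotation, and reads there cannot be assigned with certainty.

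*Irf7* (chromosome 7, 141262706 to 141266481, minus strand) encodes a transcription factor that amplifies production of type I interferon. It measured 37.5, 16.2, 20.9 and 14.3 CPM, highest in WT preparation 1. *Oasl2* (chromosome 5, 114896936 to 114912234, plus strand) belongs to the oligoadenylate synthetase-like proteins and measured 125, 64.0, 61.8 and 57.5 CPM. *Ifi44* (chromosome 3, 151730922 to 151749960, minus strand) measured 46.1, 20.8, 20.9 and 23.8 CPM. For *Irf7*, *Oasl2* and *Ifi44* the WT preparation 1 sum stood alone above 3 sums that lay close together.

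*Rsad2* (chromosome 12, 26442746 to 26456452, minus strand) encodes viperin, an antiviral radical-SAM enzyme. It measured 12.8, 8.38, 5.98 and 12.2 CPM, with WT and KO overlapping. Single wells held 74.7% of its counts in WT preparation 2, 41.3% in KO preparation 1 and 66.99% in KO preparation 2. Without the top well of each gene, *Rsad2* measured 10.4, 2.68, 3.68 and 4.50 CPM over the counts left, highest in WT preparation 1. *Mx2* (chromosome 16, 97535308 to 97560900, plus strand) encodes a dynamin-like antiviral GTPase and was the lowest member, at 3.55, 2.21, 6.397 and 7.32 CPM. It was the only member with both KO sums above both WT sums, and a single well held 75.8% of its counts in KO preparation 1.

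**Figure D1:**
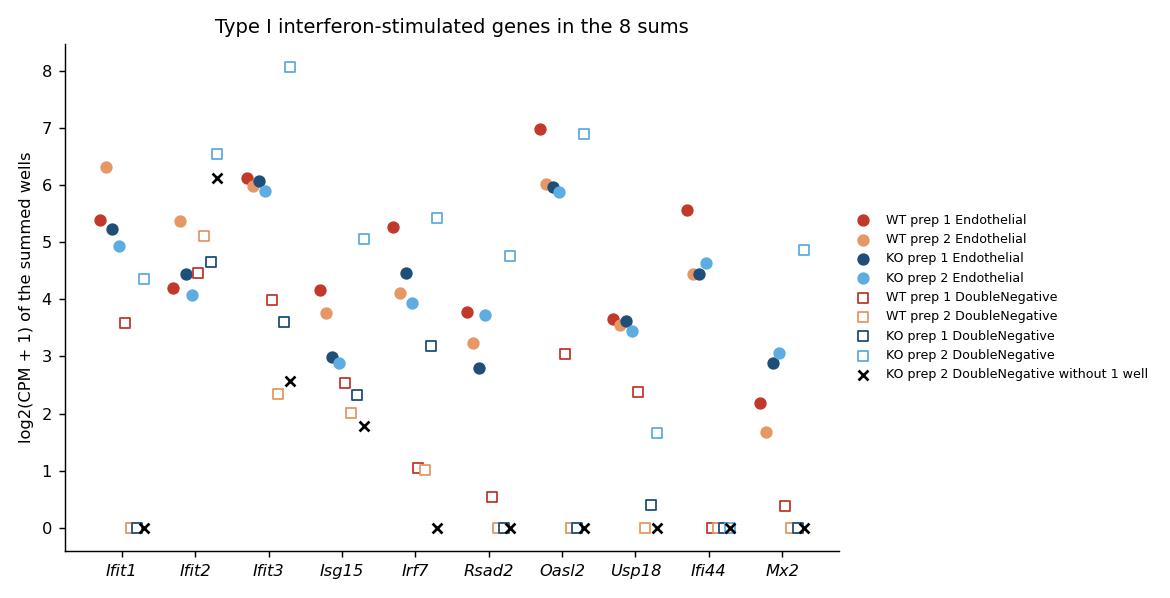
Level of each of the 10 genes as log2(CPM + 1) in the 8 sums, with Endothelial sums as filled circles, DoubleNegative sums as open squares, and a cross for the KO preparation 2 DoubleNegative sum without 1 well. The Endothelial sums of a gene lie near each other (means over the 10 genes 4.24 to 4.73). For most genes the DoubleNegative sums of WT preparations 1 and 2 and KO preparation 1 lie lower (means 2.20, 1.05 and 1.42). That of KO preparation 2 (mean 4.76) drops when 1 well is left out, except for *Ifi44*, which is at 0, and *Ifit2* stays at 68.8 CPM.

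Per kilobase of exon the Endothelial levels gave an order. *Ifit3* was highest at 36.6 ± 2.72 CPM per kb (SD, n = 4 sums), and its lowest sum lay above the highest of the next gene. *Ifit1* (17.5 ± 8.31), *Isg15* (14.2 ± 6.64), *Oasl2* (12.1 ± 5.02), *Ifit2* (6.02 ± 2.92), *Irf7* (5.89 ± 2.80), *Ifi44* (4.56 ± 1.99) and *Usp18* (3.90 ± 0.257) followed, each with a range that overlapped its next neighbour's in this order. *Usp18* did not overlap *Rsad2* (2.27 ± 0.741), which overlapped *Mx2* (1.35 ± 0.662).

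The members were each found in a minority of wells, with few exceptions. *Oasl2* had a count in 55.3% of the 235 Endothelial wells of WT preparation 1 (95% exact binomial interval 48.7% to 61.8%), 62.0% in WT preparation 2, 31.8% in KO preparation 1 and 51.7% in KO preparation 2. *Mx2*, at the other end, had a count in 7.23%, 6.00%, 1.32% and 11.2%. The median share over the 10 genes was 23.4%, 24%, 14.1% and 21.9% in the same order, against 7.14%, 0%, 3.75% and 7.14% in the DoubleNegative wells. Intervals cover counting error only, because wells of 1 preparation are not replicates.

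With every well thinned to 20000 counts, the median shares were 15.96%, 14%, 9.27% and 14.04% in the Endothelial wells. *Oasl2* was then found in 46.8% of wells of WT preparation 1 (40.3% to 53.4%) and in 26.5% of KO preparation 1 (21.6% to 31.8%), with 42.0% and 36.0% in WT and KO of preparation 2, whose intervals overlapped. *Ifi44* stood at 19.1% (14.3% to 24.8%) and 9.27% (6.25% to 13.1%) in WT and KO of preparation 1, and at 12.0% (4.53% to 24.3%) and 16.9% (9.75% to 26.3%) in preparation 2. For *Ifit1*, *Ifit2* and *Ifit3* the intervals of all 4 Endothelial groups overlapped. Wells of 1 preparation are not replicates, so no test was run on these shares.

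**Figure D2:**
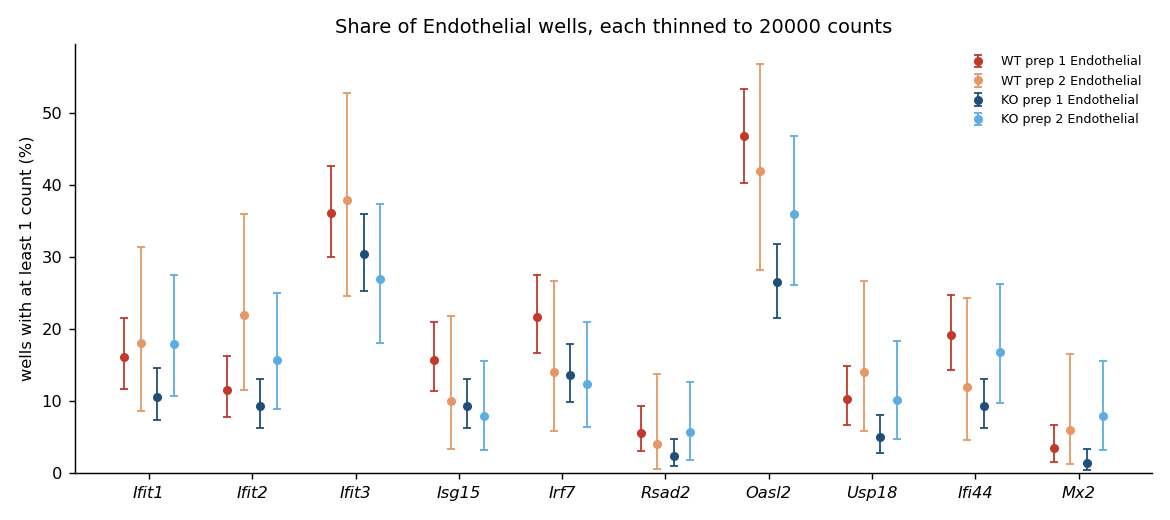
Percent of Endothelial wells with at least 1 count of each gene after thinning each well to 20000 counts, by genotype and preparation, with 95% exact binomial intervals. *Oasl2* and *Ifit3* were found in the most wells of each group, and KO preparation 1 had the lowest median share, 9.27%.

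Wells in which many of the genes were found together occurred in each Endothelial group. In wells thinned to 20000 counts, at least 5 of the 10 genes had a count in 19 of 235 wells of WT preparation 1 (8.09%, 4.94% to 12.3%), 4 of 50 of WT preparation 2 (8%, 2.223% to 19.2%), 6 of 302 of KO preparation 1 (1.99%, 0.733% to 4.27%) and 5 of 89 of KO preparation 2 (5.62%, 1.85% to 12.6%). No member was found in 21.3%, 20%, 38.4% and 20.2% of the wells. The unthinned counts were 38 wells (16.2%), 12 (24%), 21 (6.95%) and 12 (13.5%) with at least 5 genes. A small number of wells carried much of a sum, since the single well with the most member counts held 4.02% of them in WT preparation 1, 35.8% in WT preparation 2, 8.15% in KO preparation 1 and 13.4% in KO preparation 2.

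**Figure D3:**
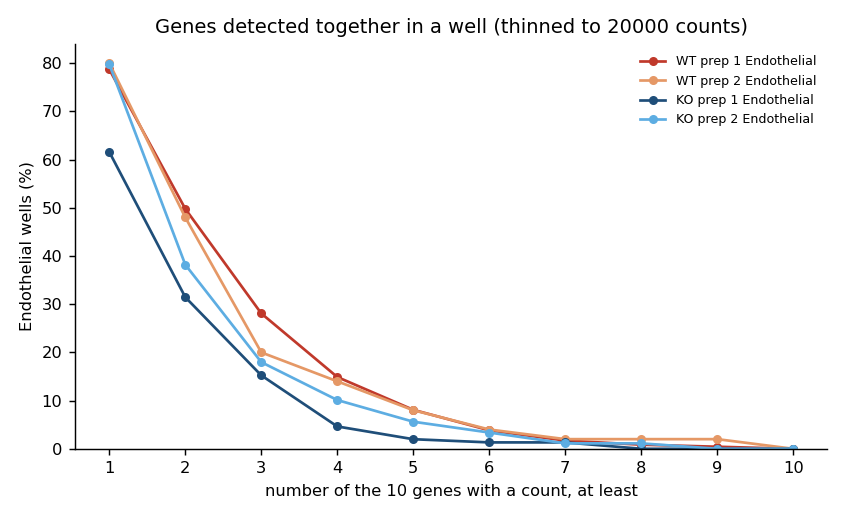
Percent of Endothelial wells in which at least the given number of the 10 genes had a count, after thinning to 20000 counts, 1 line per genotype and preparation. The line of KO preparation 1 lies below the others at 1 gene (61.6% of wells, against 78.7% to 80.0%), and all 4 lines fall to 8.09% or less at 5 genes.

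The comparison that the question turns on set the WT preparation 1 Endothelial sum against the other 3 Endothelial sums. The median log2 difference of the members was 0.34, a ratio of 1.27, beside 0.06 over all 12702 genes tested. None of the 10 was at least 2-fold above each of the other 3 sums, where 3.36% of all genes were. Without the top well of each gene 4 of the 10 were, *Isg15*, *Rsad2*, *Oasl2* and *Ifi44*, beside 5.44% of all genes (5.86% and the same 4 with the full totals as divisor), and the median difference was 0.69. Per well, the median summed level of the 10 genes was 219 CPM in WT preparation 1, against 132, 111 and 110 CPM in WT preparation 2, KO preparation 1 and KO preparation 2, and after thinning it was 200 CPM against 100 in each of the others. WT preparation 1 was the highest of the 4 sums for 7 of the 10, where it was for 27.1% of all genes. The largest differences were those of *Irf7* (1.10 on the log2 scale), *Ifi44* (1.05), *Oasl2* (1.02) and *Isg15* (0.95), and *Ifit1* (-0.11), *Mx2* (-0.35) and *Ifit2* (-0.43) lay below 0. This is 1 sum on a plate of its own against 3, so no test applies, and genotype, preparation and plate cannot be told apart in it.

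The MHC class II genes, which present peptides to CD4 T cells, had a median log2 difference of 4.18, a ratio of 18.2, and all 7 were at least 2-fold above each other sum. *Cd74*, the invariant chain, stood at 3066 CPM in WT preparation 1 and at 27.4, 27.7 and 59.9 in WT preparation 2, KO preparation 1 and KO preparation 2. *Ciita*, the transactivator of these genes, stood at 23.98 CPM against 4.50, 3.51 and 1.65. The 15 GBP and IRG GTPases, which act against intracellular pathogens, had a median of 1.85, a ratio of 3.61, and 13 of 15 passed the same 2-fold rule. *Gbp2* was at 1050 CPM against 259, 206 and 279, and *Igtp* at 879 against 144, 125 and 104. *Gbp8* (76.4 against at most 58.2 CPM) and *Gbp9* (95.05 against at most 108 CPM) did not pass it. Members of these families share sequence, and the split of reads among them is uncertain.

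Of 10 further genes known for the type II response, 7 passed the 2-fold rule, with a median of 1.35. *Ido1*, an enzyme of tryptophan breakdown, was at 49.8 CPM against 18.7 to 22.7, and *Cd274*, which encodes PD-L1, at 80.5 against 17.5 to 34.6. *Irf1*, a transcription factor of the interferon response, was at 371 against 155 to 192 CPM and missed the rule. The chemokines did not share the pattern, *Cxcl10* being at 0.926 CPM in WT preparation 1 and at 40.9 in WT preparation 2, all from a single well, with 0.126 and 0 in KO.

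A longer list of 34 other type I genes gave nearly the same median as the members, 0.35 over the 31 tested, and 3 of the 31 passed the 2-fold rule. These were *Ifi27l2a* (122 against 12.6 to 17.6 CPM, with 79.7% of its counts in WT preparation 1 from a single well), *Zbp1*, a sensor of Z-form nucleic acids (20.9 against 1.41 to 2.99 CPM), and *Oas2* (5.18 against 0 to 1.40 CPM). The RNA sensor genes *Ifih1* and *Ddx58* measured 68.3 and 78.3 CPM in WT preparation 1, and 80.6 to 126 and 46.9 to 66.8 CPM in the others. Receptor and signalling genes had a median of 0.18 over the 13 tested. *Stat2* was at 96.5 against at most 56.3 CPM and *Irf9* at 125 against 78.1 to 94.2 CPM. The receptor genes *Ifnar1* (47.3 against 44.3 to 57.9 CPM) and *Ifngr1* (639 against 761 to 886 CPM) were not higher.

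Of 11 interferon ligand genes listed, 1 had a count in these wells, *Ifnk*, at 0.0738 CPM in the Endothelial sum of KO preparation 1. The other 10, *Ifnb1* and *Ifng* among them, were at 0 in all 784 wells. For the WT preparation 1 Endothelial sum, 3 counts would be 0.0751 CPM. Cells outside the gates were not measured.

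**Figure D4:**
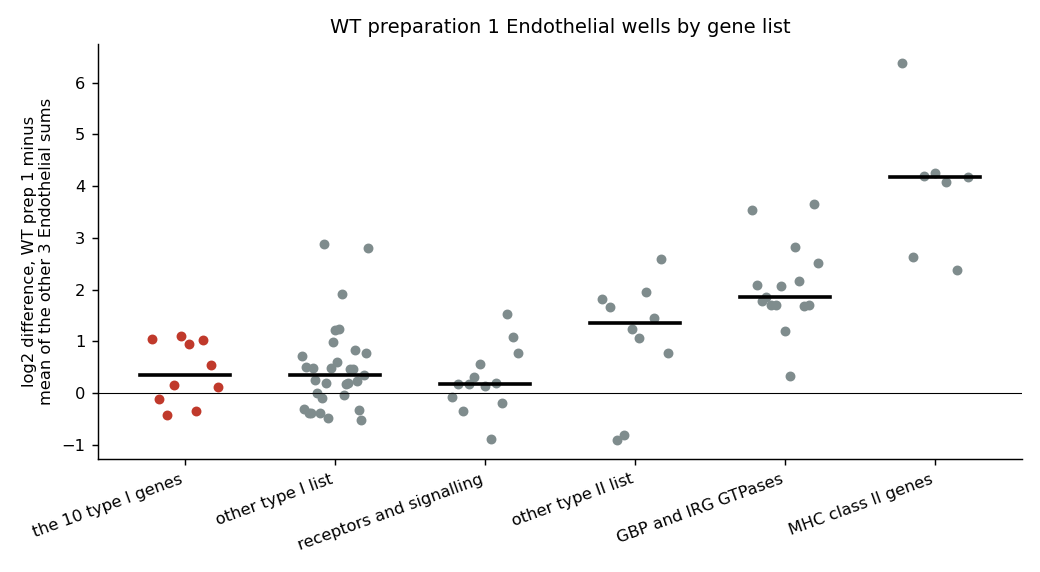
Log2 difference between the WT preparation 1 Endothelial sum and the mean of the other 3 Endothelial sums (1 CPM added before the log), 1 point per gene tested, with the median of each list as a bar. The 10 type I genes lie between -0.43 and 1.10, and the 7 MHC class II genes between 2.38 and 6.38.

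Within wells of WT preparation 1, the summed level of the 10 genes and that of the MHC class II genes were only loosely related (Spearman's rho 0.21 over 235 wells), while the MHC class II genes and the GTPases were more closely related (0.65), and the members and the GTPases lay between (0.37). In WT preparation 2 these values were 0.34, 0.46 and 0.41 over 50 wells. In KO preparation 1 they were 0.11, 0.15 and 0.26 and in KO preparation 2 0.05, 0.03 and 0.29. These are descriptions across cells that share depth and a preparation. Of the 10 wells of WT preparation 1 with the highest summed level of the members (1397 to 5082 CPM), 3 had no MHC class II count, and of the 10 such wells in KO preparation 1 (1061 to 3455 CPM), 8 had none, as did 1 of 10 in WT preparation 2 and 2 of 10 in KO preparation 2. A count of any MHC class II gene was found in 83.8% of the Endothelial wells of WT preparation 1, 66.0% of WT preparation 2, 38.4% of KO preparation 1 and 80.9% of KO preparation 2, and in 81.7%, 56.0%, 33.8% and 76.4% after thinning.

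**Figure D5:**
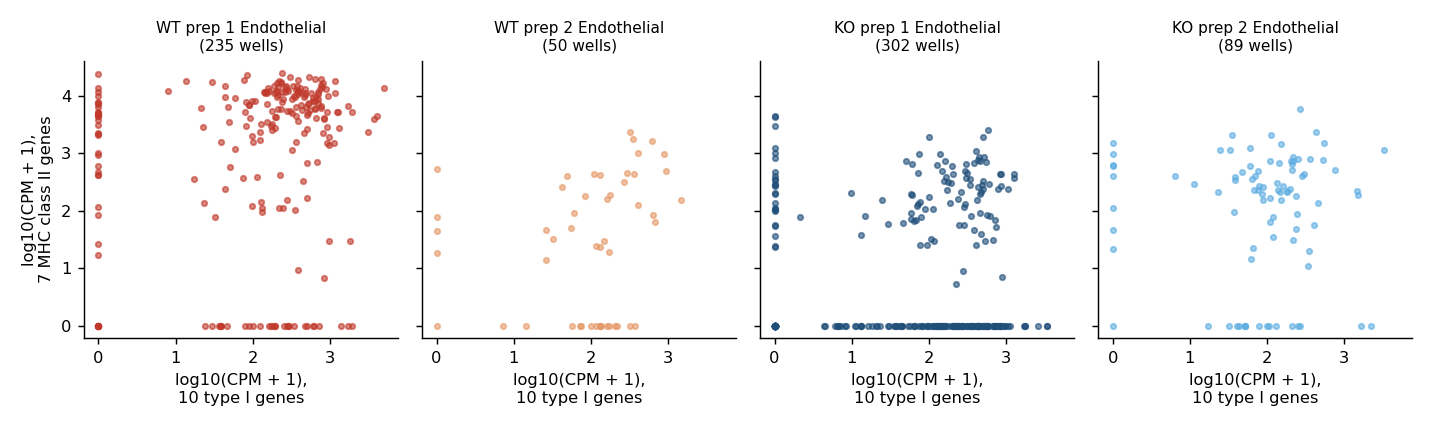
Each point is 1 Endothelial well, with log10(CPM + 1) of the 10 type I genes summed on the horizontal axis and of the 7 MHC class II genes summed on the vertical axis, in 1 panel per genotype and preparation. The panel of WT preparation 1 (235 wells) has a dense group at high MHC class II levels (median 4606 CPM), and its type I levels reach 5082 CPM. They reach 1507 CPM in WT preparation 2 (50 wells), 3455 CPM in KO preparation 1 (302) and 3321 CPM in KO preparation 2 (89).

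Between genotypes, no member passed the test. In edgeR's quasi-likelihood test on the Endothelial sums, 2 KO against 2 WT, 0 of the 10 members and 0 of all 12702 genes (0%) had a Benjamini-Hochberg adjusted p under 0.05. At an unadjusted p under 0.05 there were 1 member, *Ifit1*, and 468 genes, and DESeq2 called 0 members and 37 genes. Fitted log2 fold changes (KO over WT) were below 0 for 9 of the 10 genes, with a median of -0.59 beside 0.0025 over all genes. The values furthest below 0 were those of *Isg15* (-1.14, SE 0.57) and *Ifit1* (-0.86, SE 0.37, unadjusted p = 0.0475 and adjusted p = 1.00 in edgeR), and *Mx2* was above 0 (1.26, SE 0.83). For *Ifit3*, the interval of the fold change ran from -0.68 to 0.54, and for *Usp18* from -1.30 to 1.16. Both KO sums lay below both WT sums for 3 of the 10 genes, *Ifit1*, *Isg15* and *Oasl2*, beside 14.6% of all genes. Without the top well of each gene they did for 4, *Ifit1*, *Isg15*, *Oasl2* and *Usp18*, beside 12.9%, and with the full totals as divisor for *Ifit1* alone, beside 7.94%.

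Within preparations the medians had the same sign but not the same size. The median log2 difference of the members, KO minus WT, was -0.48 in preparation 1, where 2 of the 10 lay above 0, and -0.13 in preparation 2, where 3 did. The MHC class II genes stood at -4.94 and 0.18 and the GTPases at -1.98 and -0.21 in preparations 1 and 2. For *Oasl2* the differences were -1.003 and -0.15, for *Isg15* -1.17 and -0.88, and for *Ifit1* -0.15 and -1.38. With preparation added to the model as a block, edgeR called 1 gene and 0 members. Without WT preparation 1 the fitted log2 fold change of *Ifit1* was -1.28 and the median of the members was -0.03. That fit leaves 1 WT sum, which is assumed to vary like the KO sums, so its calls are not given. The WT sum left in that fit is the one in which a single well held 58.9% of the *Ifit1* counts.

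Between the gates, *Ifi44* separated most clearly. It had no count in any of the 108 DoubleNegative wells, which allows a share of up to 8.81% in the 40 wells of KO preparation 1 by the exact interval, and 20.8 to 46.1 CPM in the Endothelial sums. Its pooled Endothelial level was 27.6 CPM, where 3 counts over all DoubleNegative wells would be 0.167 CPM. Reads of 1 well are not independent molecules, so these values set no lower bound on the fold difference. edgeR's test, with the genotype and preparation of each pair of sums as a block, called it higher in Endothelial sums (adjusted p = 0.00941), 1 of 10 members, where 8.01% of all 11579 genes tested were called higher. The median log2 fold change of the members was 3.16, beside 0.22 over all genes, with 9 of 10 above 0. Without the block it was 0.62 with 6 of 10 above 0. Within KO preparation 2 the median log2 difference was -1.26 with 3 of 10 above 0.

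In 3 of the 4 DoubleNegative sums the other members were low, and KO preparation 2 stood apart. *Oasl2* measured 7.23, 0, 0 and 118 CPM in the DoubleNegative sums of WT preparations 1 and 2 and KO preparations 1 and 2. *Ifit3* measured 14.8, 4.05, 11.1 and 267 CPM, and *Irf7* 1.06, 1.01, 8.06 and 42.1 CPM. A single well of the 14 in KO preparation 2 held 89.3% of the member counts of its sum. It had 112312 counts in all, counts of 9 of the 10 genes (all but *Ifi44*), 4612 CPM summed over them, and no MHC class II count. It also had 31617 CPM of *Dcn*, a proteoglycan of fibroblasts, and no count of *Pecam1*, *Cdh5*, *Acta2* or *Ptprc*. The next highest well of that sum had 258 CPM.

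Without that well, the KO preparation 2 DoubleNegative sum held 0 CPM of *Ifit1*, *Irf7*, *Rsad2*, *Oasl2*, *Usp18* and *Mx2*, 4.91 of *Ifit3* and 2.46 of *Isg15*. Removing it was decided after it was seen. It was picked as the well of that sum with the most counts of these same members, and no Endothelial well was dropped. The choice lowers the members in that sum by construction. The calls that follow are therefore descriptions, and the share of all genes is not a like background for them. The same edgeR test then called 5 of the 10 members higher in Endothelial sums, where 7.56% of all 11572 genes tested were, namely *Ifit1* (log2 fold change 5.70, SE 1.497, adjusted p = 0.0414), *Ifit3* (2.81, SE 0.45, adjusted p = 0.00604), *Rsad2* (6.24, SE 1.38, adjusted p = 0.0220), *Oasl2* (6.45, SE 1.11, adjusted p = 0.00797) and *Ifi44* (adjusted p = 0.0124). Fitted fold changes of genes with sums at 0 depend on the prior count of the fit. *Irf7*, *Usp18* and *Mx2* missed the threshold with adjusted p-values of 0.0580, 0.0878 and 0.0604.

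*Ifit2* was the exception among the members. It measured 21.1, 33.4, 24.2 and 91.8 CPM in the DoubleNegative sums, and 68.8 CPM in KO preparation 2 without the well, against 15.8 to 40.6 CPM in the Endothelial sums. Its fitted log2 fold change, Endothelial over DoubleNegative, was -0.79 (SE 0.53, adjusted p = 0.392), and it was the only member below 0. After thinning, *Ifit2* had a count in 12.5% to 42.9% of DoubleNegative wells and in 9.27% to 22% of Endothelial wells.

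The type II lists differed between the gates as well. Of the 7 MHC class II genes 5 were called higher in Endothelial sums, as were 11 of the 15 GTPases and 9 of 27 other type I genes tested. Among the last were *Bst2*, or tetherin, which holds budding virus at the cell surface (log2 fold change 1.75, SE 0.30, adjusted p = 0.00712) and *Trim25*, a ubiquitin ligase of RNA sensing (4.06, SE 0.77, adjusted p = 0.0102). *Ifngr1* was higher in Endothelial sums (2.54, SE 0.39, adjusted p = 0.00416) and *Ifngr2* lower (-2.32, SE 0.33, adjusted p = 0.00322).

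The genes most like the members over the 8 sums, by Pearson correlation of log2 CPM with the mean of the members among 8674 genes, included *Nipal3* (0.98), *Ndufaf1* (0.97), *Mndal* (0.97) and *Glt28d2* (0.97). Without the 1 DoubleNegative well *Mndal* stood at 0.98, *Nipal3* at 0.57, *Ndufaf1* at 0.63 and *Glt28d2* at 0.56. *Mndal*, of the interferon-inducible p200 family, measured 17.8, 15.6, 19.9 and 22.9 CPM in the Endothelial sums.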

How the data were processed

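Single cells from mouse aortas were sequenced with Smart-seq2. The submitters' processing notes name STAR 2.7.7a, Picard 2.22.0 and HTSeq 0.9.1 on GRCm38. Per the methods, the authors put ERCC and EYFP sequences into the alignment index, dropped duplicate reads and then counted per gene. The deposited values are raw counts per gene and well. The annotation release is not given in the sources used here, and GENCODE M21 gave coordinates and exon lengths. Of all counts 51.9% were on genes, 1.25% on spike-ins and 46.9% in 5 summary lines of HTSeq. The last 2 were left out.

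Wells were grouped by the labels and kept with at least 20000 counts and 500 genes. No 2 kept wells had identical counts. Doublets were not called, because each well received 1 sorted cell, and no clusters were made. Counts were summed per gate, genotype and preparation and divided by the sum's total to give CPM. For log2 differences 1 CPM was added. The Endothelial genotype test (KO against WT) and the gate test used edgeR 4.0.16 in R 4.3.3 (glmQLFit, glmQLFTest, TMM, filterByExpr), two-sided, with a Benjamini-Hochberg adjusted p under 0.05 as the threshold, with DESeq2 1.42.0 as an alternative. The gate test took the genotype and preparation as a block. The labels mark a shared preparation, and after removal of group means samples of preparation 1 correlated by 0.142, so a fit of genotype with this block was made too. Methods were tested on simulated data. Wells were also thinned to 20000 counts, and shares carry 95% Clopper-Pearson intervals. Python 3.11.15, numpy 2.4.6, pandas 2.3.3, scipy 1.17.1 and matplotlib 3.10.9 were used.

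All 10 members are named, with genes of the comparison lists and genes among the 5 most like the members by Pearson correlation among those with a mean of at least 10 CPM. Some values are not reported here. The members and lists were chosen with earlier results of these data known. Alternatives were other size factors, no filter, deeper wells, thinned wells, wells chosen by *Cdh5*, *Pecam1* and *Ptprc*, other priors, removal of the top well of each gene, and each replicate left out.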

Additional observations from a re-analysis of the deposited data

Results flagged for a closer look

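Of 28 groups of 4 sums, 5 held a sum far from the other 3 by Dixon's test, the gap to the nearest sum over the whole range, and chance alone flags about 1 in 20 groups. In the Endothelial sums WT preparation 1 stood above the rest for *Oasl2* (0.863), *Ifi44* (0.832) and the summed level of the GBP and IRG GTPases (0.837). The question singled out WT preparation 1, and the lists were chosen with earlier results of these data known. The chance rate therefore does not apply to these Endothelial flags, which are descriptions only. In the DoubleNegative sums KO preparation 2 stood above the rest for *Rsad2* (0.887) and *Mx2* (0.922), where it rests on 1 well.

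The KO minus WT difference had opposite signs in the preparations for 3 members, and the difference between preparations was not tested. *Ifit2* changed by -1.54 on the log2 scale from preparation 1 to preparation 2, *Rsad2* by 1.47 and *Ifi44* by 1.30.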

How the results depend on the processing

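The median difference of the members in WT preparation 1 (0.34) was 0.52 with the mean CPM over wells, 0.69 without the top well of each gene, 0.49 with thinned wells, 0.52 in wells of at least 100000 counts, 0.26 with a prior of 5 CPM, and 0.25 to 0.44 with each other sum left out. Members at least 2-fold above each other sum (0, beside 3.36% of all genes) were 2 with the mean CPM over wells (2.99%). They were 4 without the top well of each gene (5.44%) and 2 with thinned wells (3.35%). In wells of at least 100000 counts there was 1 (3.58%), and with each other sum left out 1 to 2 (5.07% to 8.68%). The median of the other type I genes was 0.23 with a prior of 5 CPM and 0.32 to 0.39 with each other sum left out, and that of the GTPases 2.07 with thinned wells. With each other sum left out the GTPases ranged from 1.81 to 2.02 and the MHC class II genes from 3.75 to 4.35. The median share of wells in WT preparation 1 was 15.96% when thinned and 16.6% at a minimum of 5 counts.

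The genotype fit called 0 genes. It called 1 with the replicate block, with RLE size factors, with wells chosen by markers and without the top well of each gene, 5 with thinned wells, 37 in DESeq2, 104 with no filter, and 5 to 311 with each replicate left out. Members called were 0 to 1 with each replicate left out, and 0 in the other settings. Their median was -0.29 with thinned wells and -0.63 to -0.031 with each replicate left out. Values changed sign for *Ifit1* (0.23), *Rsad2* (0.60) and *Usp18* (0.064) with thinned wells, for *Ifit3* (0.11) in wells of at least 100000 counts, and with replicates left out for *Ifi44* (range -1.01 to 0.085), *Irf7* (-1.07 to 0.087) and *Rsad2* (-0.91 to 0.31; 0.11 without WT replicate 1), and for *Ifit2* (-1.18 to 0.089). With all replicates kept none of these passed the threshold, and the cause was not tested.

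The gate fit called 1 member and 1867 genes in either direction, of which 928 (8.01% of those tested) were higher in Endothelial sums. Members called were 3 with thinned wells, where 6 could be tested, 5 in DESeq2 and 7 without the top well of each gene. They were 5 without 1 DoubleNegative well, picked by its member counts, where 7.56% of all genes were called higher. With each replicate left out they were 1 to 3. Shares of all genes for thinned wells and without the top well are not reported here, so those counts lack a background. All genes called were 3027 in DESeq2, 1233 in wells of at least 100000 counts and 1110 to 1468 with each replicate left out. With no replicate block the median of the members was 0.62, and *Ifit3* (-0.36), *Isg15* (-0.15) and *Mx2* (-0.60) changed sign. Low depth limits *Mx2*, *Rsad2*, *Usp18* and *Isg15*, which had 25 to 143 counts each in the Endothelial sums of preparation 2.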

Other observations

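*Samhd1*, which degrades nucleotides and restricts viruses, was at 150 CPM in WT preparation 1 and at 36.5 to 73.9 CPM in the other Endothelial sums. *Tmem173*, which encodes the adaptor STING, was at 99.9 against 36.4 to 53.5 CPM there, and it was higher in Endothelial than in DoubleNegative sums (edgeR log2 fold change 2.35, SE 0.41, adjusted p = 0.00760). *Tlr3*, a sensor of double-stranded RNA, was at 24.1 against 27.5 to 45.0 CPM. The nucleic acid sensors as a list had a median log2 difference of 0.27 in WT preparation 1, with 1 of 8 at least 2-fold above each other sum.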
